A study of Mus musculus with 6 samples.

Results

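The CD8 T cells of the mouse liver were followed from control livers through a pre-metastatic stage to macro-metastases in models of colorectal cancer. A cell barcode was taken as a CD8 T cell when it carried at least 1 unique molecular identifier (UMI, one counted transcript molecule) of Cd3d, Cd3e or Cd3g and at least 1 of Cd8a or Cd8b1, and none of Cd4, Foxp3 or Cd79a. It also had to hold fewer than 10 UMIs of the neutrophil genes S100a8 and S100a9 together and fewer than 2 detected genes among Clec4f, Vsig4, Stab2 and Clec4g, which mark Kupffer cells and sinusoidal endothelium. The cells were thus chosen by the UMI counts of these genes, which are described without a test. Of 71908 barcodes, 66935 had at least 300 genes and under 25% mitochondrial UMIs, and 2219 of these were CD8 T cells (3.32%). Control replicates 1 and 2 held 784 and 335 of them, the pre-metastatic replicates 350 and 275, and the macro-metastatic replicates 148 and 327.

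CD8 T cells kill infected or transformed cells that show foreign or tumour peptides on MHC class I molecules. A naive CD8 T cell circulates through lymph nodes under the homing receptor CCR7 and the transcription factors LEF1 and TCF1. Activation replaces this programme with cytotoxic granules, chemokines and tissue retention, and lasting antigen exposure brings inhibitory receptors such as PD-1, a state called exhaustion. The liver holds both passing and resident CD8 T cells in its sinusoids.

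Each group had 2 libraries of liver tissue, described as immune and non-immune cells. The labels give the control livers the genotype ctrl, and describe the pre-metastatic niches and the macro-metastatic niche as orthotopic mouse models of colorectal cancer. The cell line CT26-GFP, a mouse colon carcinoma line that carries green fluorescent protein, stands on all 6 libraries, the controls included. The labels name no strain, age, sex, time after tumour transfer or number of animals. Nothing says that replicates are separate mice, and the p-values then measure just the spread between these libraries, which may be technical. Whole livers were dissociated with collagenase, so tumour tissue and surrounding liver cannot be told apart within the macro-metastatic libraries. In suspensions of this kind, fewer captured cells of a type and a larger share of other cells cannot be told apart either.

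The CD8 T cells summed to between 552115 and 1632922 UMIs per library. Median UMIs per CD8 T cell were 1774 and 1775 in controls, 2043.5 and 1837 at the pre-metastatic stage and 3174.5 and 3168 at the macro-metastatic stage. B cells of the same macro-metastatic libraries had medians of 2318 and 2382, against 1550 and 1519 in controls, so that cells of both kinds were deeper there. Control replicate 1 stood apart with 784 of the 2219 CD8 T cells. The 15 pairs of libraries shared between 126 and 222 barcode sequences, of which 3 belonged to CD8 T cells.

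The first sequences to show are the stretches directly upstream of 5 genes on which the results below turn. Klrc1, Gzma and Gzmf were higher and Il7r was lower in macro-metastatic livers, and Pdcd1 is the gene of PD-1. Each line gives the 250 bases before the RefSeq start site on GRCm38.p6, 5′ to 3′ on the gene's strand. Capitals mark TGTGGT or its reverse complement ACCACA, the core sequence bound by RUNX factors, which act throughout the CD8 lineage.
Klrc1 chr6:129678974-129679223, minus strand: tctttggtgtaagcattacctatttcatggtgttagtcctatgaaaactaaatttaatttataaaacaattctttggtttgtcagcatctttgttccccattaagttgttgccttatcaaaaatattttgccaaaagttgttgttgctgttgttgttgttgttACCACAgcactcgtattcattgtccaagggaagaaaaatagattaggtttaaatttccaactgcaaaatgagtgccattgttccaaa
Gzma chr13:113100982-113101231, minus strand: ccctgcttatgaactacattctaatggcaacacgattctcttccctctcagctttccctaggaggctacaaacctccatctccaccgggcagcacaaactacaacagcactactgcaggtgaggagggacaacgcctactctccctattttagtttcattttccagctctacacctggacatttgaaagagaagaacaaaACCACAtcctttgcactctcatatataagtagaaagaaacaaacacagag
Gzmf chr14:56211408-56211657, minus strand: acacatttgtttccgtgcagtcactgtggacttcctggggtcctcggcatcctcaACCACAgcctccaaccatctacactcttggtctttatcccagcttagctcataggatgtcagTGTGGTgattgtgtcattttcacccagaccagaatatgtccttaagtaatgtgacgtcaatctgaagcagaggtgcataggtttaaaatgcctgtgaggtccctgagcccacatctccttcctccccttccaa
Pdcd1 chr1:94052554-94052803, minus strand: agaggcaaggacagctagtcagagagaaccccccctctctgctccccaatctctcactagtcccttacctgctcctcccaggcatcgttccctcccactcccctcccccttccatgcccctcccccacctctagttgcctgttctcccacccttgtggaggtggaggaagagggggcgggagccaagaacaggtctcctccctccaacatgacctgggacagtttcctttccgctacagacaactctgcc
Il7r chr15:9529877-9530126, minus strand: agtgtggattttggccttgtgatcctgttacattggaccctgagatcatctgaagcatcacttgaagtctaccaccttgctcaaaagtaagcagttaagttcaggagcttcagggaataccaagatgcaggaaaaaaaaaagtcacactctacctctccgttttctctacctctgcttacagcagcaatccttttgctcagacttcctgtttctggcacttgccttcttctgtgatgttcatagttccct
The RUNX letters lay at position -87 of Klrc1, at -50 of Gzma and at -195 and -133 of Gzmf, counted from the start site to the first base of the match, and were not in these windows of Pdcd1 or Il7r. Over 27025 RefSeq promoters of this length, 14.2% held them on either strand. They were in 14 of the 26 effector gene promoters that had a RefSeq entry (53.8%), in 5 of 15 exhaustion gene promoters (33.3%) and in 0 of 15 naive gene promoters. The promoters were also searched for letters of NR4A, T-box, AP-1, NFAT, TCF/LEF and KLF factors, which are not marked above. In effector gene promoters, NFAT letters were in 61.5% against 55.6% of all promoters, and KLF letters in 61.5% against 51.3%. T-box letters were in 11.5% against 3.31%, AP-1 in 7.69% against 6.87%, TCF/LEF in 7.69% against 14.05% and NR4A in 0% against 1.31%. These letters describe the windows and show neither binding nor its absence.

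The transcripts of the T cell receptor complex and of CD8 chose the members, so their levels describe the gate and do not test its label. Cd3e, a chain of the T cell receptor complex, was detected in 89.8% to 92.0% of CD8 T cells in the 6 libraries, and Cd8a in 82.1% to 92.7%. Cd8b1, the beta chain of the CD8 coreceptor of conventional CD8 T cells, was detected in 70.6% of all members. Its level was 890.4 and 684 counts per 1e6 UMIs (CPM) in control, 711 and 727 at the pre-metastatic stage and 879.5 and 566 at the macro-metastatic stage, so the groups overlapped. The summed level of Cd3e, Cd8a and Cd8b1 was between 2782 and 3846 CPM in CD8 T cells and between 0 and 4.28 CPM in B cells. At the edge of the rule, 395 members (17.8%) had a single CD8 UMI and 1824 had at least 2. Because the T cell genes are sparsely captured, natural killer T cells and gamma-delta T cells with CD8 transcripts can be among the members. Conventional CD4 T cells, used below for comparison, had Cd3 and Cd4 UMIs and none of Cd8a, Cd8b1, Foxp3 or Cd79a. That gate can hold natural killer T cells too.

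Transcripts of other cells were present and moved with the groups. At least 1 UMI of S100a8 or S100a9 was found in 0.510% and 0.597% of CD8 T cells of the control libraries, 14.0% and 7.64% of the pre-metastatic and 84.5% and 70.9% of the macro-metastatic libraries. The 10 neutrophil markers summed to 19.0 and 99.6 CPM in control, 366 and 201 at the pre-metastatic stage and 1054 and 675 in macro-metastatic CD8 T cells. In B cells they summed to 23.5 and 19.2, 325 and 128, and 1006 and 602 CPM, a similar course in a cell type that lacks them. Kupffer cell markers rose in the same order, from 60.4 to 61.9 CPM in control to 348 to 386 in macro-metastatic libraries, and hepatocyte transcripts fell from between 359 and 1155 to between 38.0 and 102 CPM. Natural killer and natural killer T cell markers summed to 213 and 501, 583 and 732, and 871 and 748 CPM, with Klra8 at 0 UMIs in all 6 libraries. Gamma-delta T cell markers summed to 258 and 529.8, 357 and 497, and 308 and 172 CPM, with overlap between groups, and Trdc and Trgc1, of 3 tested, fell in macro-metastatic livers. Monocyte and macrophage markers summed to 272 and 527, 813 and 869, and 1003 and 673 CPM, and erythroid markers, the haemoglobins among them, to 9.19 and 1.51, 13.0 and 20.2, and 105 and 286 CPM. In macro-metastatic livers all 5 tested neutrophil genes rose, which were Retnlg, Lcn2, Csf3r, Il1b and Hdc. The 4 tested Kupffer cell genes, Cd5l, C1qa, C1qb and C1qc, rose too. Of 5 tested natural killer and natural killer T cell genes, Klre1 and Fcer1g rose. Lyz2, Csf1r and Cd14 and the haemoglobin genes Hbb-bs, Hba-a1 and Hba-a2 also rose. B cell markers summed to 244 and 172, 623 and 433, and 480 and 638 CPM, with Cd74 and H2-Aa higher and Ighm lower in macro-metastatic livers. The part of these transcripts in the results was not tested, but 1571 members without high UMI counts or several genes of other lineages gave the values named below as strict members. Of the macro-metastatic members 62 of 148 and 135 of 327 were strict.

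CD8 T cells made up a smaller share of the captured cells in macro-metastatic livers than in control livers. Among the barcodes that passed 4 T cell gates, they made up a larger share than in pre-metastatic livers. Their share of kept barcodes was 8.26% and 3.23% in controls, 3.39% and 2.58% at the pre-metastatic stage and 1.23% and 2.33% at the macro-metastatic stage. Both macro-metastatic values lay under all others, and control replicate 1 lay far above the rest. The share differed between macro-metastatic and control livers by -1.69 ± 0.53 on the log2 scale (SE; edgeR quasi-likelihood test, adjusted p = 0.00609). It was not called in pre-metastatic livers (-0.94 ± 0.52, adjusted p = 0.187) or between macro-metastatic and pre-metastatic livers (-0.75 ± 0.52, adjusted p = 0.187). Of the 9 tested gates of cells, 8 were called between macro-metastatic and control livers (88.9%), 2 between pre-metastatic and control (22.2%) and 4 between the tumour stages (44.4%). Without control replicate 1 the macro-metastatic difference was -0.86 (adjusted p = 0.242). Without either pre-metastatic library it was -1.69, as with all 6, but with fewer libraries in the fit it was not called (adjusted p = 0.0616 and 0.0621).

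Among T cells the course was different. CD8 T cells were 26.6% and 17.2% of the barcodes of 4 T cell gates in control, 16.6% and 17.3% at the pre-metastatic stage and 30.7% in both macro-metastatic libraries. The macro-metastatic share of T cells was higher than the pre-metastatic share by 0.86 ± 0.23 on the log2 scale (edgeR, adjusted p = 0.0115), while against control the difference was 0.48 (adjusted p = 0.0735). For each conventional CD4 T cell there were 1.12 and 0.811 CD8 T cells in control, 0.850 and 0.846 at the pre-metastatic stage and 2.31 and 1.76 at the macro-metastatic stage. Both macro-metastatic ratios lay above the other 4.

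**Figure D1:**
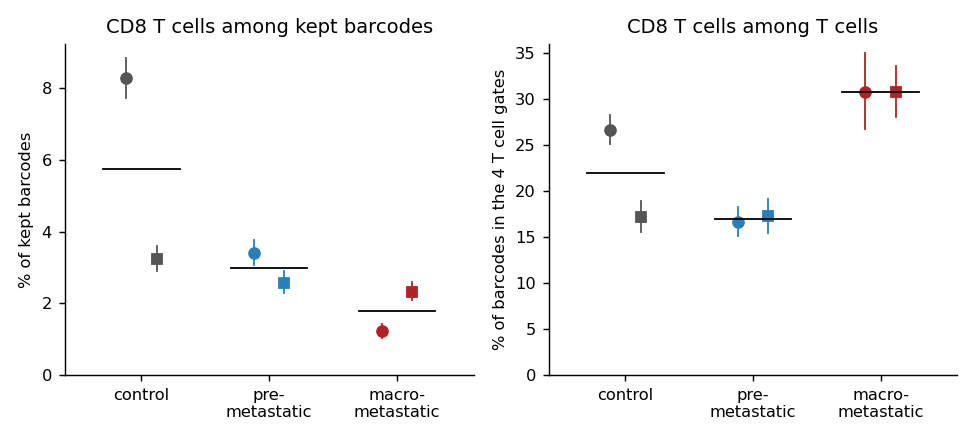
Share of CD8 T cells per library in the 3 groups, as a percentage of kept barcodes and as a percentage of the barcodes in 4 T cell gates, with bars for the 95% Wilson interval, which covers counting error only. Control replicate 1 lies at 8.26% of kept barcodes, above the other 5 libraries, and both macro-metastatic libraries lie at 30.7% of T cells.

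The make-up of the CD8 compartment differed along the naive to effector axis. Each cell was thinned to 1000 UMIs so that depth was equal, which left out 118 members under that depth, and was then read for the naive genes Ccr7 and Lef1 and the effector genes Ccl5 and Nkg7. Cells with naive transcripts only made up 25.4% and 35.8% in controls, 20.1% and 14.1% at the pre-metastatic stage and 11.3% and 11.99% at the macro-metastatic stage. At this depth the 3 groups did not overlap in this share. Cells with effector transcripts only made up 44.6% and 32.6%, 49.0% and 65.4%, and 78.7% and 75.1%, in the same order. At this depth the groups did not overlap here either, although pre-metastatic replicate 1 was close to control replicate 1. At 2000 UMIs control and pre-metastatic libraries overlapped in both shares, with naive shares of 19.9% and 24.0% against 23.4% and 12.7% and effector shares of 47.8% and 38.0% against 46.3% and 64.4%. They also overlapped with the Cd8b1 gate at 1000 UMIs, in the naive (28.3% and 44.0% against 30.6% and 16.9%) and in the effector share (41.6% and 22.0% against 35.2% and 62.8%). Under these settings the macro-metastatic libraries lay apart from the other 4, although at 2000 UMIs the naive share of macro-metastatic replicate 1 (12.6%) was close to that of pre-metastatic replicate 2. With the Cd8b1 gate at 2000 UMIs, the naive shares of macro-metastatic (11.4% and 14.5%) and pre-metastatic libraries (26.7% and 11.6%) overlapped. With 2 libraries against 2, an exact permutation test cannot go below p = 0.33, so these shares carry no test. Without thinning, the naive share was 25.3% and 37.6%, 18.9% and 16.4%, and 11.5% and 9.79%, and the effector share 42.6% and 29.6%, 43.7% and 59.6%, and 77.7% and 74.9%. Among B cells, which should lack both effector genes, 0.763% to 2.5% had a UMI of either after the same thinning.

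**Figure D2:**
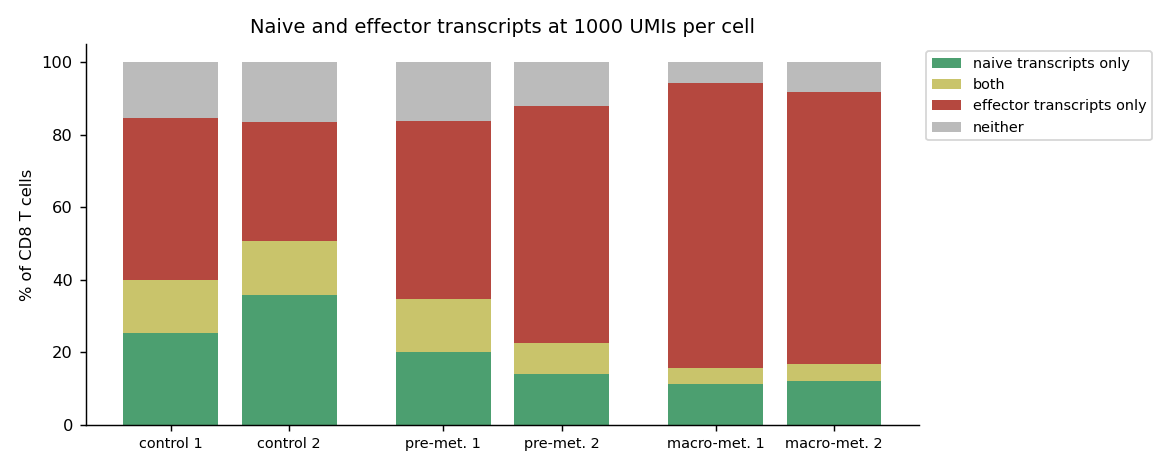
Share of CD8 T cells per library, after thinning to 1000 UMIs, with transcripts of naive genes only, effector genes only, both or neither. The share with naive genes only lies between 25.4% and 35.8% in control and between 11.3% and 11.99% in macro-metastatic libraries.

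Gene by gene, the tumour stages differed widely in how much of the CD8 transcriptome moved. UMIs were summed per library and tested over 7948 genes with edgeR's quasi-likelihood test. Between pre-metastatic and control livers 47 genes were called at an adjusted p under 0.05 (0.591%), of which 45 were higher (0.566%) and 2 lower (0.0252%). Between macro-metastatic and control livers 1545 were called (19.4%), of which 929 were higher (11.7%) and 616 lower (7.75%). Between macro-metastatic and pre-metastatic livers 813 were called (10.2%), of which 533 were higher (6.71%) and 280 lower (3.52%). The comparisons of both tumour stages with control share the control libraries. The libraries of the groups did not overlap for 36.0% of tested genes in the first comparison, 59.4% in the second and 57.3% in the third, so that separation of 2 against 2 libraries alone says little. The median log2 change over all tested genes was -0.01 in pre-metastatic and -0.02 in macro-metastatic CD8 T cells.

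Naive genes were lower together in macro-metastatic CD8 T cells. All 17 naive genes were tested, and 12 fell, 1 rose and 4 did not pass the test, with a median log2 change of -1.55. Against pre-metastatic livers 8 of them fell, with a median of -0.79, and without pre-metastatic replicate 1 or macro-metastatic replicate 1 only Lef1 of these 8 remained called. None was called between pre-metastatic and control livers, where the median was -0.39.

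Lef1 and Tcf7, the transcription factors that keep T cells in the naive and memory-precursor programme, fell in macro-metastatic livers. Lef1 was at 478 and 692 CPM in control, 495 and 307 at the pre-metastatic stage and 122 and 124 at the macro-metastatic stage (log2 -2.24 ± 0.26 against control, edgeR adjusted p = 0.000135). Tcf7 was at 632 and 831, 654 and 379.5, and 164 and 263 CPM (-1.75 ± 0.28, adjusted p = 0.00116). For both genes the macro-metastatic libraries were the lowest and did not overlap with the others. Il7r, the receptor for the survival cytokine IL-7, was at 630.0 and 1369 CPM in control, 914 and 689 at the pre-metastatic stage and 271 and 307 at the macro-metastatic stage (-1.77 ± 0.30, adjusted p = 0.00162). Its control libraries differed by more than any other pair, and still lay above both macro-metastatic libraries.

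The exit and quiescence genes of naive T cells fell as well. S1pr1, the receptor that lets T cells leave lymphoid tissue, was at 180.4 and 294 CPM in control, 203 and 107 at the pre-metastatic stage and 82.9 and 77.3 at the macro-metastatic stage (log2 -1.55 ± 0.31, edgeR adjusted p = 0.00457). Klf2, the factor that drives S1pr1, fell by 1.01 ± 0.22 on the log2 scale (adjusted p = 0.0072), and by 0.74 (adjusted p = 0.065) without macro-metastatic replicate 1. Klf3, a related factor outside the lists, was at 222 and 352, 245 and 226, and 45.2 and 61.5 CPM (-2.36 ± 0.26, adjusted p = 0.000106). In these 3 genes both macro-metastatic libraries lay under all others. Igfbp4, an insulin-like growth factor binding protein expressed in naive T cells, showed a step at each stage, with 247 and 232 CPM in control, 137 and 113 at the pre-metastatic stage and 69.7 and 74.8 at the macro-metastatic stage. Igfbp4 fell against control (-1.72 ± 0.20, adjusted p = 0.000135) and was just short of a call in pre-metastatic livers (-0.93 ± 0.19, adjusted p = 0.0511). Ccr9, a gut-homing chemokine receptor, Rflnb, Dapl1, Nsg2, Actn1 and Foxp1 also fell, the last 2 no longer called without control replicate 2 (-0.55 and -0.51) or without either macro-metastatic library (-1.21 to -1.18 for Actn1, -1.03 to -0.95 for Foxp1).

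Not all naive genes fell, and Ccr7 was among those that did not pass the test. This chemokine receptor guides T cells into lymph nodes, and it was at 135 and 257 CPM in control, 118 and 97.6 at the pre-metastatic stage and 143 and 169 in macro-metastatic CD8 T cells, with overlap between control and macro-metastatic libraries (log2 -0.27 ± 0.27, edgeR adjusted p = 0.523). Id3, a regulator of naive and memory T cells, rose in macro-metastatic livers (1.48 ± 0.40, adjusted p = 0.0214), but not without control replicate 1 (1.29, adjusted p = 0.117) or macro-metastatic replicate 1 (1.20, adjusted p = 0.134). Satb1, Bach2 and Txk did not pass the test.

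Cytotoxic genes rose, but not all of them. Of 32 effector genes 30 were tested, and in macro-metastatic livers 12 rose, 3 fell and 15 did not pass, with a median log2 change of 0.75. In pre-metastatic livers only Klrc1 was called, with a median of 0.35 over the list. Against pre-metastatic livers 5 rose and 2 fell. None of those 5 (Ccl5, Prf1, Ctsw, Klrc1 and Tbx21) was called without pre-metastatic replicate 1, and only Ctsw and Tbx21 were without macro-metastatic replicate 1, or Prf1 and Ctsw without replicate 2. Prf1, the pore-forming protein perforin, was at 73.8 and 71.5 CPM in control, 98.1 and 172 at the pre-metastatic stage and 337 and 242 at the macro-metastatic stage (log2 1.97 ± 0.27 against control, edgeR adjusted p = 0.000396). The 3 groups did not overlap for Prf1. Gzma, granzyme A, was at 484 and 425, 772 and 1975, and 2394 and 1606 CPM, so pre-metastatic replicate 2 lay inside the macro-metastatic range. Gzma rose 4.38-fold in macro-metastatic livers (2.13 ± 0.34, adjusted p = 0.00118), while the pre-metastatic value of 1.59 ± 0.34 missed the threshold (adjusted p = 0.0621).

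Granzyme B did not follow granzyme A. Gzmb was at 1787 and 1339 CPM in control, 1107 and 1589 at the pre-metastatic stage and 1674 and 1239.9 at the macro-metastatic stage, with all 3 groups overlapping (log2 -0.11 ± 0.22 between macro-metastatic and control, edgeR adjusted p = 0.774). The granzymes of the C to G cluster, which lie beside Gzmb on chromosome 14, had UMIs almost only in pre-metastatic and macro-metastatic livers. Gzmf had 0 UMIs in both control libraries, 15 and 12 in the pre-metastatic and 54 and 236 in the macro-metastatic libraries. Against a floor of 3 counts over the control group, Gzmf was at least 13.9-fold higher in pre-metastatic and at least 123-fold higher in macro-metastatic CD8 T cells. Gzmd and Gzme, with 62 and 68 UMIs in macro-metastatic livers, of which 59 and 65 were in replicate 2, had 0 elsewhere. These granzymes are near-identical copies, so the split of their reads between genes is uncertain.

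Of the chemokine genes only Ccl5 rose, beside several granule genes. Ccl5, the chemokine of effector and memory CD8 T cells, was at 3403 and 2776 CPM in control, 2401 and 5462 at the pre-metastatic stage and 8048 and 7162 at the macro-metastatic stage (log2 1.30 ± 0.28 against control, edgeR adjusted p = 0.00664). With DESeq2 the change of Ccl5 was 1.31 and was not called (adjusted p = 0.0537). The macro-metastatic libraries were the highest, and the pre-metastatic libraries lay on both sides of the controls. Nkg7, a protein of cytotoxic granules, was at 669.7 and 535, 690.1 and 953, and 1488 and 1154 CPM (1.13 ± 0.21, adjusted p = 0.00268). Cst7, Ctsw, Tbx21, the master factor T-bet, Zeb2 and Il2rb, a chain of the IL-2 and IL-15 receptors, rose too. Zeb2 was at 0.28 among strict members (adjusted p = 0.625), 0.77 without control replicate 1 and 0.65 without macro-metastatic replicate 1, Cst7 at 0.85 without the latter and Tbx21 at 0.93 without macro-metastatic replicate 2, none of them called. The cytokine genes did not pass the test: Ifng was at 261 and 70.0 CPM in control and 151 and 119 in macro-metastatic libraries (-0.40 ± 0.43, adjusted p = 0.555), and Tnf was at 330.4 and 80.9 against 88.5 and 58.2 CPM (-1.61 ± 0.60, adjusted p = 0.0826). In both genes control replicate 1 lay far above control replicate 2.

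Receptors shared with natural killer cells rose together with the cytotoxic genes. Klrc1 encodes NKG2A, an inhibitory receptor that pairs with the product of Klrd1, CD94, and binds the non-classical MHC molecule Qa-1. Klrc1 was at 58.6 and 88.7 CPM in control, 199.7 and 321 at the pre-metastatic stage and 561 and 440.5 at the macro-metastatic stage, a step up at each stage with no overlap. It rose in pre-metastatic livers (log2 1.86 ± 0.28, edgeR adjusted p = 0.0163), in macro-metastatic livers (2.81 ± 0.28, adjusted p = 4.73e-05) and between the stages (0.95 ± 0.25, adjusted p = 0.0335). Klrd1 was at 185 and 392, 452 and 476, and 657 and 645 CPM, and rose in macro-metastatic livers (1.20 ± 0.27, adjusted p = 0.00898). Klrk1, the activating receptor NKG2D, rose there too (1.03 ± 0.29, adjusted p = 0.0243), but fell short without control replicate 1 (0.51, adjusted p = 0.164), without macro-metastatic replicate 1 (1.06, adjusted p = 0.074) or without replicate 2 (0.99, adjusted p = 0.11). Without control replicate 1 the pre-metastatic rise of Klrc1 was 1.54 (adjusted p = 0.0891), among cells with effector transcripts only it was 1.53 (adjusted p = 0.0968), and its rise between the stages was not called without pre-metastatic replicate 1 (0.63, adjusted p = 0.305) or without either macro-metastatic library (0.76 and 1.12). After thinning to 1000 UMIs, Klrc1 was detected in 3.71% and 6.07% of control, 14.5% and 19.0% of pre-metastatic and 36.2% and 33.1% of macro-metastatic CD8 T cells.

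The 3 effector genes that fell were receptors and a surface protein. Klrg1, a receptor of terminally differentiated effector cells, had 73 and 10 UMIs in the controls, 10 and 4 at the pre-metastatic stage and 0 and 4 at the macro-metastatic stage (log2 -3.81 ± 0.76, edgeR adjusted p = 0.00456). Most of the Klrg1 UMIs were in control replicate 1, and without it Klrg1 was not called (-2.72, adjusted p = 0.133). Cxcr3, the receptor for interferon-induced chemokines, was at 112 and 93.3 CPM in control, 89.9 and 121 at the pre-metastatic stage and 13.2 and 34.1 at the macro-metastatic stage (-1.97 ± 0.33, adjusted p = 0.00142). Ly6c2, a surface protein of memory CD8 T cells, was at 409 and 302, 325 and 285, and 145 and 111 CPM (-1.51 ± 0.22, adjusted p = 0.000627). For Cxcr3 and Ly6c2 the pre-metastatic libraries lay close to the controls and both macro-metastatic libraries lay below.

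Most tested exhaustion genes rose in macro-metastatic livers, but only 2 were called in pre-metastatic livers. Of 18 genes 16 were tested. In macro-metastatic livers 11 rose and none fell, with a median log2 change of 1.82, and in pre-metastatic livers Pdcd1 and Ctla4 rose, with a median of 0.90. Against pre-metastatic livers 7 rose, of which Pdcd1, Havcr2, Ctla4 and Irf4 were not called without pre-metastatic replicate 1, Havcr2 and Irf4 without macro-metastatic replicate 1, Ctla4 without replicate 2 and Havcr2 without pre-metastatic replicate 2. Pdcd1, which encodes the inhibitory receptor PD-1, was at 5.68 and 26.4 CPM in control, 134 and 198 at the pre-metastatic stage and 527 and 480.3 at the macro-metastatic stage. Each stage lay wholly above the one before it. Pdcd1 was 13.0-fold higher in pre-metastatic livers (log2 3.70 ± 0.44, edgeR adjusted p = 0.00267), 39.7-fold higher in macro-metastatic livers (5.31 ± 0.42, adjusted p = 1.39e-05) and 3.05-fold higher in the later than in the earlier stage (1.61 ± 0.31, adjusted p = 0.00707). In the controls Pdcd1 rested on 9 and 17 UMIs, and the step between the stages was not called without pre-metastatic replicate 1 (1.34, adjusted p = 0.119) or with DESeq2 (1.61, adjusted p = 0.258).

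Ctla4, the inhibitory receptor that competes with CD28 for its ligands, was at 87.7 and 131 CPM in control, 236 and 318 at the pre-metastatic stage and 552 and 632 at the macro-metastatic stage, with no overlap between groups. Ctla4 rose in pre-metastatic (log2 1.37 ± 0.24, edgeR adjusted p = 0.0248) and macro-metastatic livers (2.48 ± 0.24, adjusted p = 3.69e-05). The pre-metastatic call of Ctla4 was lost without control replicate 1 (1.07, adjusted p = 0.161) or without pre-metastatic replicate 2 (1.15, adjusted p = 0.145). Tnfrsf9, the costimulatory receptor 4-1BB that T cells express after antigen contact, was at 18.3 and 40.4, 42.0 and 74.4, and 388 and 282 CPM. It rose in macro-metastatic livers (3.65 ± 0.35 against control, adjusted p = 3.66e-05, and 2.54 ± 0.32 against pre-metastatic, adjusted p = 0.000518), while the pre-metastatic value was 1.12 ± 0.40 (adjusted p = 0.366). Havcr2, which encodes TIM-3, was at 2.52 and 9.33, 30.4 and 35.6, and 136 and 69.0 CPM (4.36 ± 0.51 in macro-metastatic livers, adjusted p = 0.000136). The groups of Havcr2 did not overlap, and the pre-metastatic difference was 2.78 ± 0.58 (adjusted p = 0.0573).

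Of the transcription factors of the list, Nr4a2, Tox, Batf and Irf4 rose in macro-metastatic CD8 T cells, and Ikzf2 did not pass the test. Nr4a2, an orphan nuclear receptor induced by antigen receptor signals, was at 303 and 320.4 CPM in control, 346 and 881 at the pre-metastatic stage and 1759 and 1915 at the macro-metastatic stage (log2 2.56 ± 0.32, edgeR adjusted p = 0.000234). Tox, the factor required for exhausted T cells to persist, was at 99.0 and 187, 199.7 and 345, and 369 and 357 CPM (1.40 ± 0.30, adjusted p = 0.00674). The groups of both genes did not overlap, and pre-metastatic replicate 2 was close to the macro-metastatic level for Tox only. Batf and Irf4, partners in activated T cells, rose, as did Rgs16, Tigit, an inhibitory receptor for nectin-family ligands, and Entpd1, the ectoenzyme CD39. Without macro-metastatic replicate 1, Batf (1.49, adjusted p = 0.0723) and Entpd1 (1.04, adjusted p = 0.0738) were not called, and without control replicate 1 or macro-metastatic replicate 2 Tigit was not (1.58 and 1.88). Cd160, Cd244a, Cd101, Ikzf2 and Cd38 did not pass the test. Lag3, another inhibitory receptor, was too sparse to be tested, with 1 UMI in control, 5 at the pre-metastatic stage and 17 in macro-metastatic CD8 T cells, a ratio of 21.6 to control with a counting interval from 3.39 to 903.

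**Figure D3:**
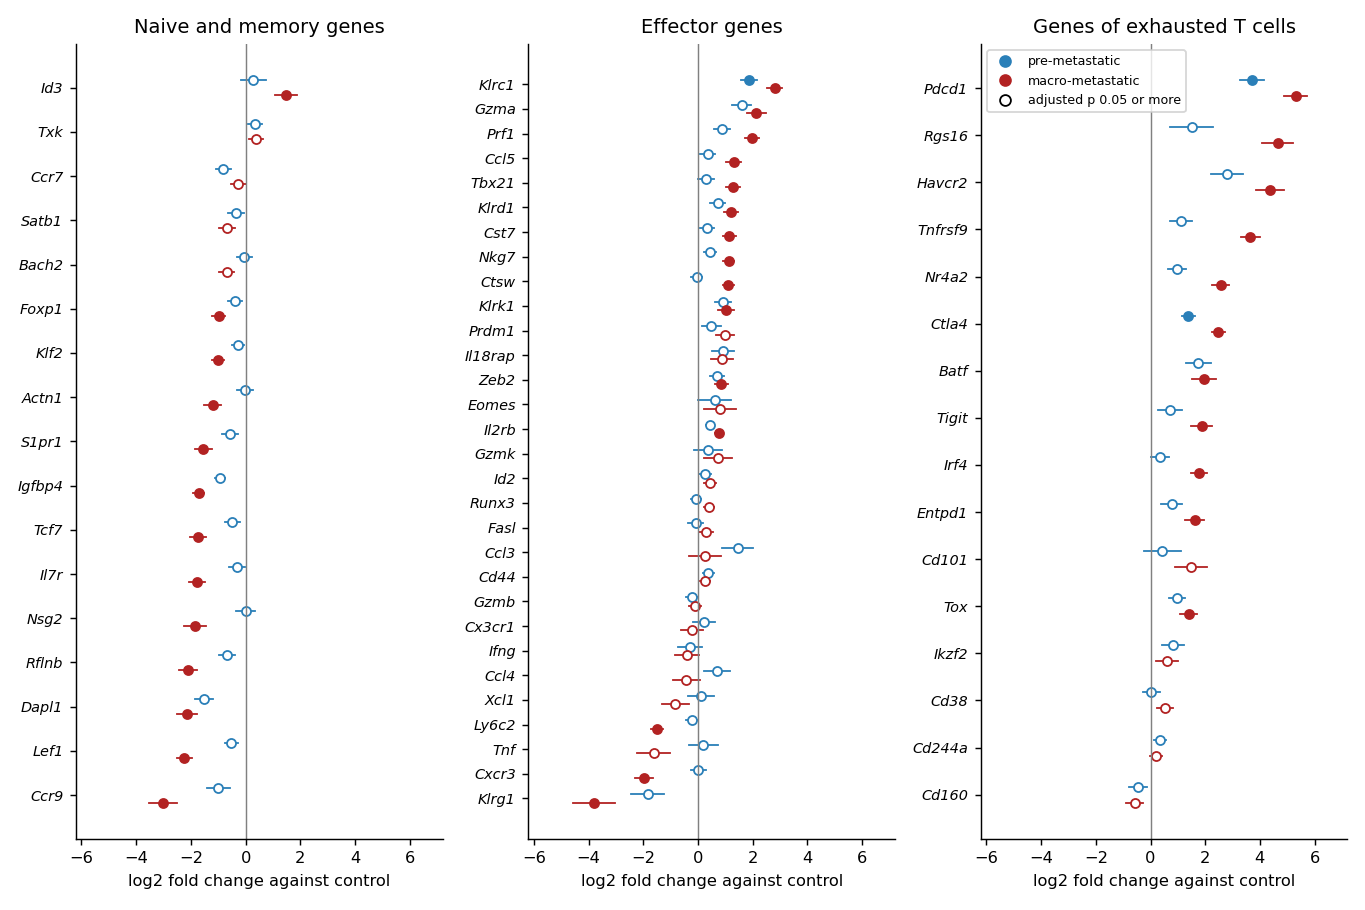
Log2 fold change of each tested naive, effector and exhaustion gene in pre-metastatic and macro-metastatic CD8 T cells against control, from edgeR. Naive genes in macro-metastatic cells have a median of -1.55 and exhaustion genes a median of 1.82, and both comparisons use the same control libraries.

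At the level of single cells, Pdcd1 was found among the cells with effector transcripts. After thinning, Pdcd1 was detected in 0.549% and 1.92% of control, 7.67% and 16.7% of pre-metastatic and 30.5% and 30.0% of macro-metastatic CD8 T cells, and without thinning in 1.02% and 4.18%, 14.6% and 24.0%, and 56.8% and 55.0%. The highest share in conventional CD4 T cells of the same libraries was 3.12%, and in B cells, with lower median depths, it did not exceed 0.257%. Among cells with effector transcripts only, 0.923% and 4.90% had Pdcd1 in control, 13.3% and 23.3% at the pre-metastatic stage and 36.0% and 38.7% at the macro-metastatic stage. Among cells with naive transcripts only, Pdcd1 was found in 0 of 185 and 0 of 112 in control, 0 of 68 and 0 of 37 at the pre-metastatic stage and 0 of 16 and 0 of 38 at the macro-metastatic stage. Cells of both kinds come from the same libraries and depth, and a count of 0 allows a share with a Pdcd1 UMI at this depth of up to 1.62% and 2.68% of the naive cells in controls but up to 18.8% and 7.89% in macro-metastatic livers, for counting error only. This limits cells with a UMI and not cells that express the gene.

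The cells with Pdcd1 differed from their neighbours in the same library in other transcripts. Ccl5 was detected in 73.1% and 88.6% of Pdcd1 cells at the pre-metastatic stage and 90.7% and 91.6% at the macro-metastatic stage, against 39.6% and 58.9%, and 69.4% and 64.0%, of cells without Pdcd1. Lef1 was detected in 11.5% and 2.27%, and 2.33% and 0%, of Pdcd1 cells, the last allowing a share with a Lef1 UMI of up to 3.16%, against 32.3% and 23.7%, and 14.3% and 14.4%, of the others. Klrc1 was in 30.8% and 38.6%, and 48.8% and 44.2%, of Pdcd1 cells, against 13.1% and 15.1%, and 30.6% and 28.4%. In all 4 libraries Ccl5 and Klrc1 were more often and Lef1 less often found beside Pdcd1. Not every gene had 1 direction in all of them. Entpd1 (8.42% against 10.36%), Havcr2 and Slc17a6 were less often found beside Pdcd1 in macro-metastatic replicate 2. Prf1 (7.69% against 10.54%) and Mki67 were less often found beside it in pre-metastatic replicate 1. In the other libraries these genes were more often found beside Pdcd1. The Pdcd1 cells numbered 26, 44, 43 and 95, and Tnfrsf9 was found in 44.2% and 28.4% of those in macro-metastatic livers against 7.69% and 4.55% in pre-metastatic livers (2 cells in each library). Among cells without Pdcd1 its shares were 20.4% and 13.1% against 3.51% and 3.65%, so Tnfrsf9 was more frequent in macro-metastatic livers in both kinds of cells. These shares describe cells of 4 libraries and carry no test.

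**Figure D4:**
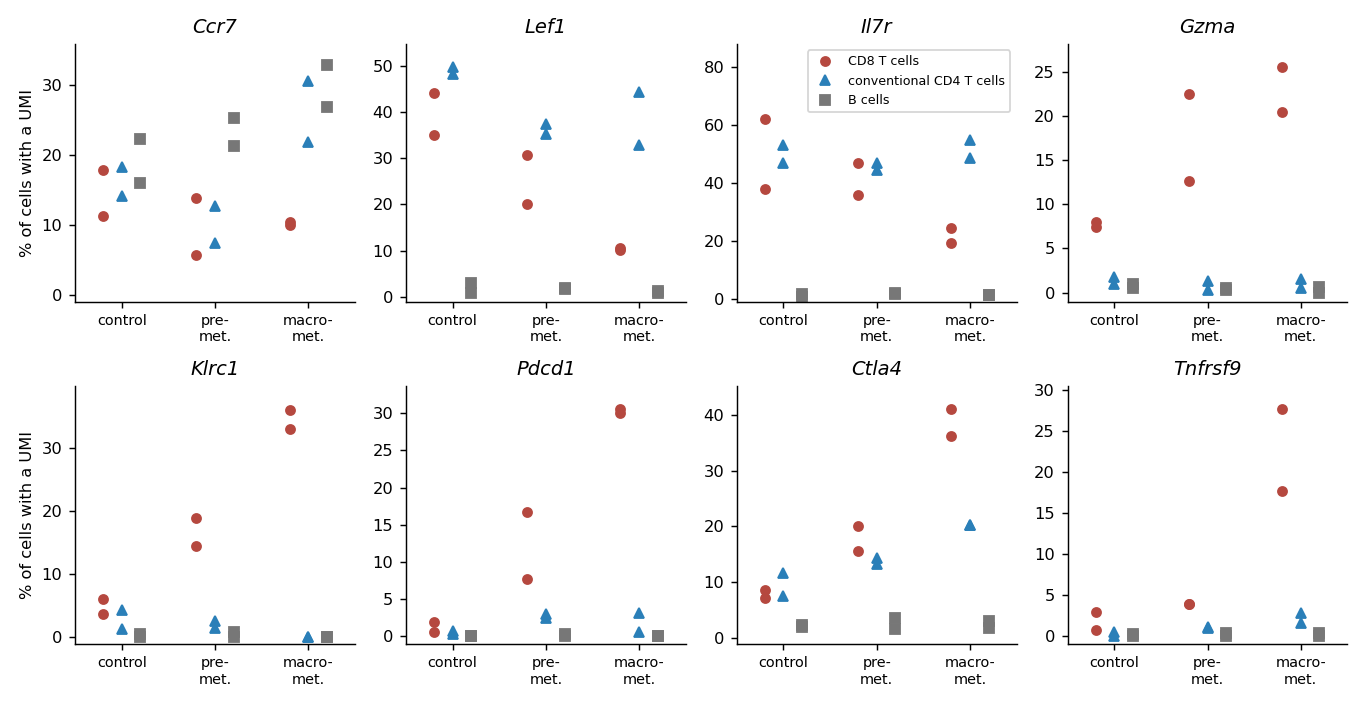
Share of CD8 T cells, conventional CD4 T cells and B cells per library with at least 1 UMI of each gene shown, after thinning each cell to 1000 UMIs. Pdcd1 is detected in 30.5% and 30.0% of macro-metastatic CD8 T cells and in at most 3.12% of conventional CD4 T cells, and Lef1 in 10.6% and 10.1% of macro-metastatic CD8 T cells.

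The same comparison was made within the cells that had effector transcripts only, so that a change in the share of naive cells enters less. Of 6382 genes tested there, 930 were called in macro-metastatic livers (14.6%), of which 580 were higher (9.09%) and 350 lower (5.48%), and 10 in pre-metastatic livers (0.157%). Exhaustion genes had a median of 1.76, with 8 of 15 higher and Cd160 lower. Pdcd1 rose by 5.0, Ctla4 by 2.85, Tnfrsf9 by 3.50 and Tox by 1.76 on the log2 scale, all called. The effector list no longer moved one way, with 6 of 30 genes higher, 7 lower and a median of 0.16. Gzmb fell there (-0.94, edgeR adjusted p = 0.00246), as did Tnf (-2.65, adjusted p = 0.022), Ccl4 (-1.25, adjusted p = 0.046) and Xcl1 (-1.72, adjusted p = 0.0407). Prf1 (1.99, adjusted p = 0.000793), Gzma (1.36, adjusted p = 0.00827) and Klrc1 (2.12, adjusted p = 0.000652) rose there as well. UMIs of Ccl5 or Nkg7 and the absence of Ccr7 and Lef1 chose these cells, and the effector counts include Ccl5 and Nkg7.

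Beyond the lists, the genes with the largest rises held several made by activated killer cells. Serpinb9, the inhibitor that shields killer cells from their own granzyme B, was at 90.8 and 93.3 CPM in control, 228 and 397 at the pre-metastatic stage and 567 and 529 at the macro-metastatic stage (log2 1.75 ± 0.25, edgeR adjusted p = 0.0157, and 2.57 ± 0.25, adjusted p = 4.56e-05). Its relative Serpinb9b was at 2.52 and 1.56, 14.0 and 49.6, and 145 and 90.6 CPM (5.60 ± 0.62 in macro-metastatic livers, adjusted p = 0.000101). Both serpins had a step at each stage with no overlap, and the pre-metastatic call of Serpinb9b (3.68 ± 0.74, adjusted p = 0.0498) was lost without control replicate 1 (4.13, adjusted p = 0.25), without pre-metastatic replicate 2 (2.58, adjusted p = 0.234) and among strict members (2.84, adjusted p = 0.285). Csf1, the growth factor of macrophages, was at 15.8 and 12.4, 47.9 and 66.6, and 250.5 and 221 CPM, and rose in pre-metastatic (1.94 ± 0.30, adjusted p = 0.0173) and macro-metastatic livers (3.99 ± 0.27, adjusted p = 6.73e-06). Its pre-metastatic call was lost without control replicate 1 (2.16, adjusted p = 0.0891), without pre-metastatic replicate 2 (1.70, adjusted p = 0.0754) and among strict members (1.91, adjusted p = 0.0675). Klrh1, a lectin-like receptor of the natural killer gene complex, was at 7.57 and 1.56, 57.2 and 86.7, and 234 and 215 CPM (5.26 ± 0.37, adjusted p = 6.73e-06). S100a4, a calcium-binding protein of effector and memory T cells, was at 139 and 157, 544 and 516, and 806 and 704 CPM and rose already in pre-metastatic livers (1.85 ± 0.18, adjusted p = 0.000646). Among cells with effector transcripts only, this rise of S100a4 was 1.30 and not called (adjusted p = 0.0565).

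Some of the largest rises were found in genes with no known part in killing. Slc17a6, a vesicular glutamate transporter, had 0 UMIs in both control libraries, 15 and 5 at the pre-metastatic stage and 74 and 70 at the macro-metastatic stage, at least 10.3-fold and at least 61.0-fold higher against a floor of 3 counts over the control group. Spp1, which encodes osteopontin, had 6 and 0, 17 and 17, and 106 and 108 UMIs (log2 5.64 ± 0.58 in macro-metastatic livers, edgeR adjusted p = 6.61e-05). Olfm1 (log2 2.79 ± 0.46), Naaa (2.69 ± 0.47) and Cst3 (1.79 ± 0.28) were called in pre-metastatic livers. They were not called among strict members (0.79, 1.09 and 0.64, adjusted p from 0.672 to 0.969), and Cst3 and Naaa are abundant in dendritic cells, whose markers summed to 42.9 and 58.9 CPM in control, 107 and 109 at the pre-metastatic stage and 29.0 and 63.8 in macro-metastatic members. The dendritic markers moved in opposite directions. Xcr1 had 0 UMIs in control, 22 in pre-metastatic and 18 in macro-metastatic members, while Siglech had 60, 23 and 1. Between macro-metastatic and control livers Xcr1 rose and Siglech fell. Slc17a6 had 0 UMIs in the conventional CD4 T cells of all 6 libraries, and Klrh1 had 1.

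Several of the largest falls were in surface genes of resting T cells. P2rx7, the ATP-gated channel that kills resting T cells when triggered, was at 119.8 and 74.7 CPM in control, 58.4 and 68.2 at the pre-metastatic stage and 5.65 and 11.6 at the macro-metastatic stage (log2 -3.36 ± 0.37, edgeR adjusted p = 0.000103). Art2b, the ADP-ribosyltransferase that can trigger this channel, fell too, from 163 and 59.1 CPM in control to 15.1 and 19.1 in macro-metastatic libraries. Cd40lg, the helper ligand for CD40, was at 119.8 and 23.3, 43.2 and 86.7, and 7.53 and 4.99 CPM (-3.73 ± 0.74, adjusted p = 0.00444), and was not called without control replicate 1 (-1.97, adjusted p = 0.0644) or macro-metastatic replicate 2 (-3.36, adjusted p = 0.0527). In all 3 genes the macro-metastatic libraries were the lowest, and control replicate 1 was the highest. The liver transcripts Alb, Gc, Ttr and Apoa2 fell as well, and Alb fell alike in B cells (-4.30) and conventional CD4 T cells (-3.91) against -3.98 in CD8 T cells.

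Programmes that mark activation in general were mixed. The counts below stand beside 11.7% of all tested genes that rose and 7.75% that fell in macro-metastatic livers. Of 10 residence genes 9 were tested, and Bhlhe40, a factor of resident T cells, rose from 234 and 179 CPM in control to 1471 and 1331 in macro-metastatic libraries (log2 2.75 ± 0.20, edgeR adjusted p = 6.73e-06), with 354 and 415 in between. Rgs1 and Rgs2 rose and Cd69, the early activation and retention receptor, fell. Cxcr6, the chemokine receptor of liver-resident CD8 T cells, was at 382 and 269, 253 and 367, and 516 and 448 CPM (0.55 ± 0.22, adjusted p = 0.109). The highest Cxcr6 values were macro-metastatic but did not pass the test. Of 16 T cell receptor signalling genes, Zap70, Cd5, Cd6, Cd2 and Icos rose and Skap1 fell. Of 18 tested cytokine receptor and signalling genes, Il4ra, Il21r and Pim1 rose and Il6ra, Il27ra and Tgfbr1 fell.

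Immediate-early and cycling genes went different ways. Of 19 immediate-early genes 6 fell, among them Fos, at 1389.9 and 1419 CPM in control, 1382 and 1608 at the pre-metastatic stage and 339 and 371 at the macro-metastatic stage (log2 -1.98 ± 0.17, edgeR adjusted p = 1.9e-05), and Egr1 (-1.57 ± 0.16, adjusted p = 6.3e-05). Fosb and Nfkbia rose. Of 19 cell cycle genes Tk1, Ccnb2, Cdca8 and Cenpe rose in macro-metastatic livers, and the marker Mki67 did not pass (0.96 ± 0.35, adjusted p = 0.0731). Cells with at least 3 UMIs of cell cycle genes after thinning made up 11.5% and 3.51% in controls, 5.60% and 11.8% at the pre-metastatic stage and 17.7% and 15.1% at the macro-metastatic stage, against 1.53% to 5.82% of B cells. The macro-metastatic values were the highest, and control and pre-metastatic libraries overlapped. At 2000 UMIs macro-metastatic livers, with 33.1% and 26.9%, overlapped with control replicate 1 (32.0%) and pre-metastatic replicate 2 (30.5%). Of 16 tested interferon-stimulated genes, Irf7, Rsad2 and Ifi27l2a rose and Irgm1 fell, 4 called genes where 19.4% of all genes were called. In pre-metastatic livers no gene of these 6 lists was called, where the share called over all genes was 0.591%.

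A part of the macro-metastatic change was common to lymphocytes. In conventional CD4 T cells 7.61% of tested genes rose and 3.4% fell between macro-metastatic and control livers, and in B cells 7.54% rose and 4.19% fell. Of 16 tested glycolysis and hypoxia genes 9 rose in CD8 T cells, among them Gapdh (log2 2.76 ± 0.20), which also rose in conventional CD4 T cells (2.55) and B cells (2.16). The metallothionein Mt1 rose by 4.75 in CD8 T cells, 5.11 in conventional CD4 T cells and 5.25 in B cells. The lipid enzyme gene Dgat1 rose by 4.0, 4.40 and 4.38. Fos fell by 1.98, 1.66 and 1.36 in the same order.

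The difference between the changes in CD8 T cells and those in conventional CD4 T cells of the same livers was therefore tested gene by gene, over 8583 genes with the library as a block. In macro-metastatic livers 243 genes were called (2.83%), of which 108 had the higher change in CD8 T cells (1.26%) and 135 the lower (1.57%). In pre-metastatic livers 14 were called (0.163%), with 5 higher (0.0583%) and 9 lower (0.105%). Of the naive genes 9 of 17 had a lower change in CD8 T cells in macro-metastatic livers. Tcf7 changed by 0.01 and Il7r by 0.17 in conventional CD4 T cells, and the differences were -1.72 ± 0.21 and -1.82 ± 0.21 (edgeR, adjusted p = 1.43e-05 and 6.69e-06). S1pr1 had a difference of -2.07 ± 0.31 (adjusted p = 0.00024) and Klf3 one of -2.23 ± 0.25 (adjusted p = 6.07e-06). Ccr7 rose in conventional CD4 T cells (1.18, adjusted p = 0.00827), with a difference of -1.40 ± 0.24 (adjusted p = 0.00127).

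Cytotoxic genes parted in the other direction. Of the effector genes, 11 had a higher and 3 a lower change in CD8 than in conventional CD4 T cells in macro-metastatic livers. Gzma had 228 UMIs in the conventional CD4 T cells of control livers and 5 in those of macro-metastatic livers, and the difference was 5.89 ± 0.38 (log2; edgeR adjusted p = 6.56e-10). Klrd1 differed by 2.97 ± 0.32 (adjusted p = 2.36e-06) and Prf1 by 2.37 ± 0.42 (adjusted p = 0.00176). Ccl4, a chemokine of activated T cells, rose in conventional CD4 T cells (2.69, adjusted p = 0.0284) and not in CD8 T cells, a difference of -2.71 ± 0.50 (adjusted p = 0.00207). Of the exhaustion genes only Pdcd1 (3.41 ± 0.77, adjusted p = 0.0127) and Tox (1.57 ± 0.28, adjusted p = 0.00186) had a higher change in CD8 T cells. Ctla4 rose in both, by 2.48 and 1.63, and its difference was 0.98 ± 0.29 (adjusted p = 0.0675). Csf1 had one of the largest differences outside the lists (5.18 ± 0.44, adjusted p = 5.51e-08).

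**Figure D5:**
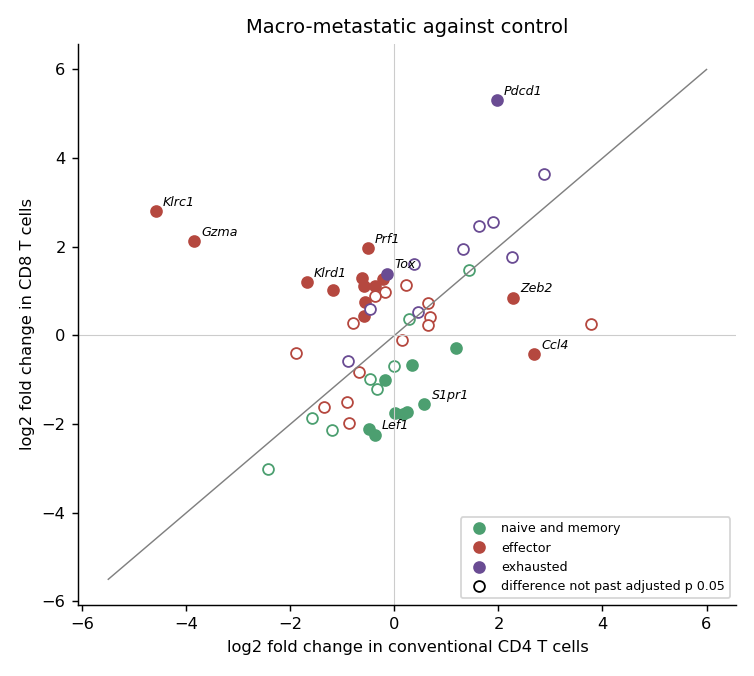
Log2 change between macro-metastatic and control livers of the naive, effector and exhaustion genes in CD8 T cells, plotted against the change in conventional CD4 T cells of the same livers, as fitted by edgeR. Gzma and Klrc1 lie far to the side of lower values in conventional CD4 T cells, where they rest on 5 and 1 UMIs in macro-metastatic livers, and Ccl4 and Zeb2 lie on the opposite side.

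Against B cells, 236 of 9134 genes differed in their change in macro-metastatic livers (2.58%), 153 with the higher change in CD8 T cells (1.68%) and 83 with the lower (0.909%). Ctla4 had a higher change than in B cells (2.53 ± 0.56, edgeR adjusted p = 0.0193), as had Serpinb9 (3.36 ± 0.57, adjusted p = 0.00314). In pre-metastatic livers 0 of 9134 genes were called (0%), with 476 at an unadjusted p under 0.05.

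Averaged over the 3 groups, CD8 T cells differed from conventional CD4 T cells in 838 of 8583 genes (9.76%), 399 higher (4.65%) and 439 lower (5.11%). Ccl5 was at 2364 to 7980.0 CPM on scaled library sizes in CD8 and at 192 to 468 in conventional CD4 T cells (log2 3.79 ± 0.24), and Gzmb at 1090.2 to 1761 against 69.7 to 229 (3.21 ± 0.17). Neither gene overlapped between the cell types in any library. Gzma (4.47 ± 0.58), the lectin-like receptor genes Klri2, Klre1, Klra5 and Klrc1, and the receptor genes Cd244a, Cd160 and Cd7 were also higher. St8sia6 (-4.47), Rab27b, Zbtb16, the factor PLZF of innate-like T cells, Izumo1r and Trat1 were among the lower genes. Zbtb16 was thus higher in the conventional CD4 T gate, which does not exclude innate-like T cells with Cd4 transcripts. Their part in the differences between the cell types was not tested.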

How the data were processed

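Single-cell transcripts were measured in 6 liver libraries on the BD Rhapsody system, 2 in each of 3 groups. The values deposited by the authors are raw UMI counts per gene and barcode over 31253 features. Per the submitters' processing notes, CASAVA 1.8, UMI-tools and build mm10 were used. The aligner is not given in the sources used here.

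Kept barcodes (300 genes or more, mitochondrial UMIs below 25%) were assigned to 10 gates by marker UMIs, in the same way for CD8 T cells, conventional CD4 T cells and B cells. No doublet caller was run. In its place, strict members leave out cells above 3 times the median UMI count of members in their library and cells with 2 or more detected genes of B, Kupffer, endothelial or dendritic marker lists. UMI counts were summed per gate and library and tested with edgeR 4.0.16 (R 4.3.3; filterByExpr, TMM, quasi-likelihood test, all 6 libraries, 3 residual degrees of freedom), with Benjamini-Hochberg adjustment over all genes tested and calls at an adjusted p under 0.05. Differences between cell types in their changes were interaction terms with the library as a block. Shares of cells were tested by the same tool over 9 gates with kept barcodes as library size. The share of T cells was tested over the 4 T cell gates alone, with their sum as library size. Its p-values were adjusted over these 4 gates, which also shared the estimate of spread. CPM of single genes use library sums over the genes kept by the filter, scaled by TMM, over both cell types where these are compared. Summed CPM of marker lists and the ratios and floors for genes of few UMIs use unscaled sums over all genes. Shares of cells carry 95% Wilson intervals, which, like the floors of 3 counts, cover counting error only. The fits were tested on simulated data with known changes. Thinning used a fixed seed, with 1000 or 2000 UMIs.

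Named genes were the naive, effector and exhaustion lists, up to 4 genes of each other list by smallest p, and the 10 most raised and 10 most lowered genes among called genes with mean log2 CPM of at least 5, groups not overlapping, and a level no lower than 10% of that in every other gate. Other called members are named as well, but not all those of the immediate-early, glycolysis and hypoxia, and glucocorticoid-responsive lists. Certain list genes are not reported here and enter no list count or class of cells. Serpinb9, Gzmd, Gzme, Cxcr6 and Mki67 were chosen after their values were seen. The members and lists were chosen with earlier results of these data known. Alternatives were other scaling, DESeq2 1.42.0, no low-count filter, other denominators, a Cd8b1 gate, the replicate number as a block, and each library left out. Promoters and start sites came from RefSeq on GRCm38.p6.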

Additional observations from a re-analysis of the deposited data

Results flagged for a closer look

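Certain genes changed differently in CD8 T cells and in conventional CD4 T cells of the same livers, by the interaction test of edgeR over 8583 genes. The values are the log2 change in CD8 T cells minus that in conventional CD4 T cells. Between pre-metastatic and control livers the difference passed the threshold for Gzma (4.14), Klrc1 (2.00) and Ccl5 (1.01), all with the higher change in CD8 T cells. Each difference combines a change in both cell types. Within CD8 T cells only Klrc1 of these was called at this stage. Within conventional CD4 T cells 0 of 27 tested effector genes were called.

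Between macro-metastatic and control livers, naive genes had the lower change in CD8 T cells: S1pr1 (-2.07), Igfbp4 (-1.94), Lef1 (-1.82), Il7r (-1.82), Tcf7 (-1.72), Rflnb (-1.62), Ccr7 (-1.40), Satb1 (-0.97) and Klf2 (-0.77). Effector genes with the higher change in CD8 T cells were Gzma (5.89), Klrd1 (2.97), Prf1 (2.37), Klrk1 (2.22), Ccl5 (1.91), Ctsw (1.74), Tbx21 (1.63), Nkg7 (1.53), Il2rb (1.36) and Id2 (1.04). Klrc1 also had the higher change, but its size is not given because it had 1 UMI in the conventional CD4 T cells of macro-metastatic livers. Within conventional CD4 T cells 4 of 27 tested effector genes rose and 4 fell against control, with a median log2 change of -0.56. The change was lower in CD8 T cells for Klrg1 (-4.52), which had 12 UMIs in the conventional CD4 T cells of control livers and 7 in those of macro-metastatic livers, for Ccl4 (-2.71) and for Zeb2 (-1.44). Among exhaustion genes, Pdcd1 (3.41) and Tox (1.57) had the higher change in CD8 T cells. The conventional CD4 T cells of the macro-metastatic libraries numbered 64 and 186, against 700 and 413 in control, and their neutrophil transcripts moved in the same direction as in CD8 T cells. The part of these differences in cell number and free transcripts was not tested.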

How the results depend on the processing

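With T cells as the total, the difference in the CD8 share turned to 0.48 between macro-metastatic and control livers and to 0.86 between macro-metastatic and pre-metastatic livers (log2). Both values keep the limit on S100a8 and S100a9 UMIs, without which the share of T cells was not tested. With TMM factors over the gates, the difference in the share of kept barcodes between macro-metastatic and control livers was -0.41 (edgeR, adjusted p = 0.749). Leaving out a library gave -1.47 to -0.11 for pre-metastatic against control, -2.22 to -0.86 for macro-metastatic against control and -1.28 to -0.36 between the stages. The replicate numbers did not pair the libraries (correlations of -0.07, 0.06 and -0.01), and a fit with the replicate block gave shares that differed by -0.90, -1.58 and -0.69, with 33, 1384 and 649 genes called, in the same order. The block ended the calls of Serpinb9b in pre-metastatic livers and of 5 of 42 named genes between the stages.

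Without a low-count filter, 261 genes were called in pre-metastatic livers, and 42 (minus B cells), 44 (minus conventional CD4 T cells) and, in macro-metastatic livers, 376 (minus B cells) for the differences between cell types. DESeq2 called 831 genes in macro-metastatic livers and 426 between the stages. Strict members gave 10, 855 and 426 calls, cells with effector transcripts only gave 10, 930 and 529, and the Cd8b1 gate gave 523 between the stages. Leaving out a library gave 9 to 130, 786 to 1517 and 212 to 1108 calls in the 3 comparisons, 0 to 17 and 69 to 264 for the difference from B cells in pre-metastatic and macro-metastatic livers, 5 to 44 and 115 to 286 for that from conventional CD4 T cells, and 600 to 720 for CD8 against conventional CD4 T cells. A group left with 1 library is assumed to vary like the others. Fewer cells and fewer tested genes enter the strict and effector-only settings, and for the other settings the cause was not tested.

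Of 56 named calls between macro-metastatic and control livers, 47 to 56 remained when a library was left out and none reversed, 53 remained under DESeq2 and 52 among strict members. Within cells with effector transcripts only, 39 remained and Zeb2 reversed to -0.12. The genes that chose those cells were not left out of this count. Of 42 named calls between the stages, 25 remained without pre-metastatic replicate 1 and 26 without macro-metastatic replicate 1. The mean share with naive transcripts only was 21.9% in control at 2000 UMIs, 23.7% and 12.6% in pre-metastatic and macro-metastatic livers with the Cd8b1 gate, and 10.6% in macro-metastatic livers without thinning. With 148 cells in the smallest library, a gene of few UMIs limits precision.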

Other observations

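Several genes outside the programmes above separated macro-metastatic CD8 T cells from both other groups. Hcst, which encodes the adaptor DAP10 of NKG2D, was at 53.0 and 80.9 CPM in control, 30.4 and 41.8 at the pre-metastatic stage and 247 and 347 at the macro-metastatic stage (log2 3.07 ± 0.29 against pre-metastatic livers, edgeR adjusted p = 7.87e-05). Creb3l2, a membrane-bound transcription factor of the secretory pathway, was at 2.52 and 12.4, 14.0 and 10.8, and 90.4 and 96.4 CPM, and its change was larger in CD8 T cells than in conventional CD4 T cells (3.0 ± 0.77, adjusted p = 0.0306) and B cells (3.82 ± 0.60, adjusted p = 0.00167). Egr2, a factor induced by antigen receptor signals, was at 119 and 98.0, 45.5 and 260.2, and 15.1 and 22.4 CPM (-2.46 ± 0.65 against control, adjusted p = 0.019). Trbc2, a constant segment of the T cell receptor beta chain, was at 1139.5 and 1053, 934 and 1202, and 1816 and 1741 CPM (0.70 ± 0.17, adjusted p = 0.0116), while Trac, the alpha chain segment, was at 1673 and 1254, 1246 and 1622, and 1489.7 and 1500.0 CPM. Hcst was also higher in conventional CD4 T cells (1.39) and B cells (1.85) of macro-metastatic livers.

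S1pr5, a receptor of circulating effector cells, had 31 and 2 UMIs in the controls, 0 and 2 at the pre-metastatic stage and 0 in both macro-metastatic libraries, so nearly all of them were in control replicate 1. Segments of the T cell receptor beta variable genes were detected in 0.638% and 2.39% of control, 2.00% and 1.45% of pre-metastatic and 4.73% and 7.34% of macro-metastatic CD8 T cells, too few for any reading of clonality. Gamma variable segments were detected in 1.28% and 2.99%, 7.14% and 5.45%, and 12.8% and 3.98%, in the same order, while Trdc and Trgc1 fell in macro-metastatic livers. These shares were not thinned, and the macro-metastatic cells were deeper.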
